A study of Yarrowia lipolytica with 11 samples.

Results

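ALK3 to ALK7 are 5 genes of the CYP52 family of cytochrome P450 enzymes in the oleaginous yeast Yarrowia lipolytica. They were taken by locus tag, with ALK3 as YALI0_E23474g, ALK4 as YALI0_B13816g, ALK5 as YALI0_B13838g, ALK6 as YALI0_B01848g and ALK7 as YALI0_A15488g. All 5 were among the 7135 genes of the count table, and all 5 passed the filter on low counts, as did 6301 genes in total. The table pairs no names with tags, so the names rest on published assignments and could not be tested against a reference here.

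RNA sequencing compared a mutant with the wild type, each grown with and without hexanoic acid, a medium-chain fatty acid, at 1 g/L. The mutant has a deletion of PEX10, whose product is part of the machinery that builds peroxisomes, and also carries a plasmid that overexpresses DGA1, an acyltransferase gene of storage lipid synthesis. The 4 groups were the mutant with acid (3 libraries), the mutant without acid (2 libraries), the wild type with acid (3 libraries) and the wild type without acid (3 libraries). Per the labels' protocols, 3 colonies of a strain were grown separately in YPC medium up to the exponential phase. The wild type is not stated to carry an empty plasmid, so the effects of the deletion, of DGA1 and of the plasmid itself cannot be told apart.

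CYP52 enzymes sit in the endoplasmic reticulum and use electrons from an NADPH-cytochrome P450 reductase to add a hydroxyl group to the end of an alkane or fatty acid chain. Fatty alcohol oxidases and fatty aldehyde dehydrogenases then carry the product on to an acid, which gives dicarboxylic acids when the starting point is a fatty acid. This omega-oxidation stands beside beta-oxidation, which shortens fatty acids in the peroxisome in this yeast. In published assays, the products of ALK4, ALK5 and ALK7 acted on dodecanoic acid, and those of ALK3 and ALK6 acted on both alkanes and dodecanoic acid. None of this background bears on hexanoic acid as a substrate.

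Library totals ran from 9988288 to 17519857 counts. PEX10 stood between 5.01 and 8.04 CPM in the mutant libraries, against 10.7 to 20.5 CPM in the wild-type libraries. DGA1 stood between 3012 and 7807 CPM in the mutant, against 110.9 to 227.3 CPM in the wild type. The 7807 CPM came from treated mutant replicate 1, and the other mutant libraries had 3012 to 3412 CPM. The labels do not say which part of PEX10 was removed. CPM are counts scaled to a common library size after TMM, a correction for differences in library makeup. Libraries of 1 group correlated at 0.956 to 0.990 in log2 CPM, and the lowest value was that of the 2 untreated mutant libraries.

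The 5 genes did not move as a block. ALK3 was high in the untreated wild type and low in the 3 other groups. ALK6 did the opposite, being lowest in the untreated wild type and highest in the treated mutant. With acid, ALK5 fell in the wild type and was higher in the mutant, while ALK4 and ALK7 passed no test in any comparison. The RNA came from whole cultures, so a smaller share of cells using a gene and less RNA per cell cannot be told apart.

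**Figure D1:**
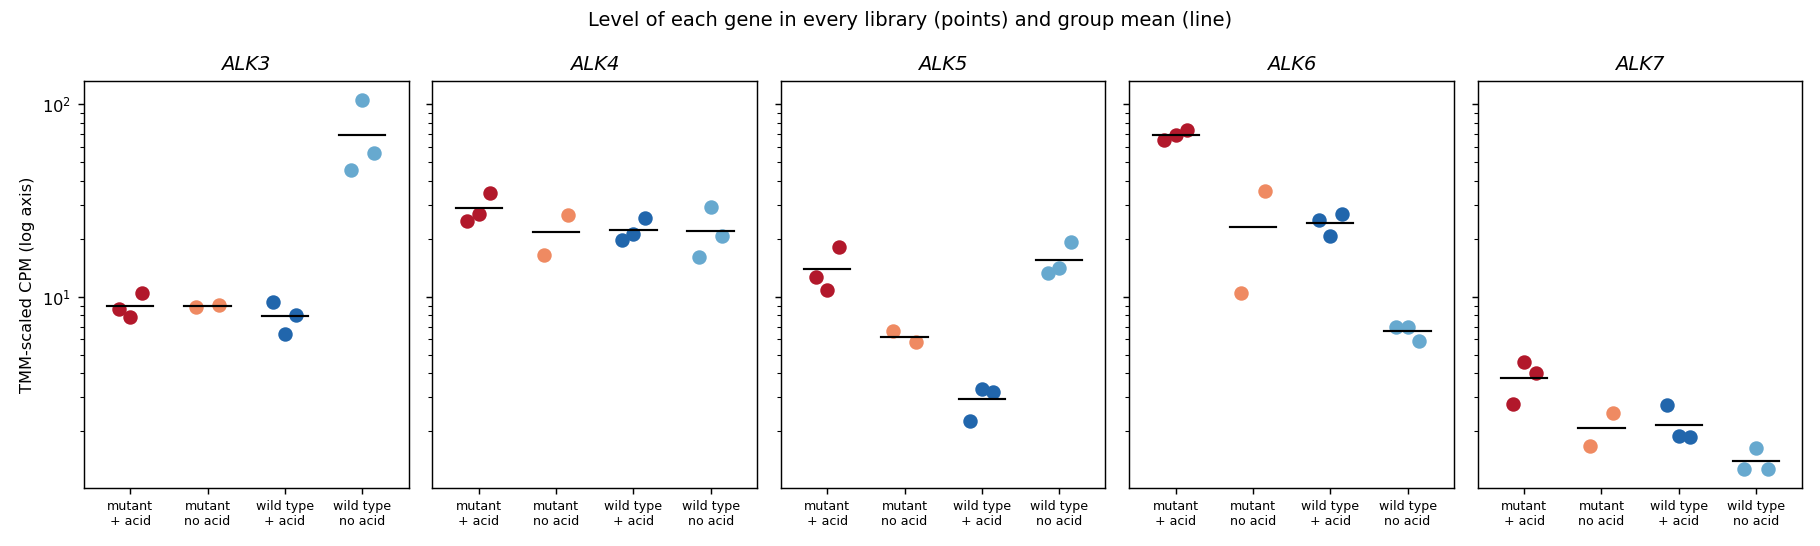
TMM-scaled CPM (log axis) of ALK3 to ALK7 in each of the 11 libraries, with points for libraries and lines for group means, from the mutant with acid to the wild type without acid. ALK3 stood at 45.5 to 106 CPM in the untreated wild type and at or below 10.4 CPM in every other library, and the 2 untreated mutant libraries lay far apart for ALK6.

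ALK3 is one of the genes whose enzyme acts on both alkanes and fatty acids. Its level was 8.62, 7.84 and 10.4 CPM in the mutant with acid and 8.81 and 9.02 CPM in the mutant without acid. It was 9.39, 6.44 and 8.06 CPM in the wild type with acid and 45.5, 106 and 55.9 CPM in the wild type without acid. The 3 untreated wild-type libraries thus lay above all 8 others, and the other groups overlapped. With acid in the wild type, ALK3 fell by 3.11 ± 0.31 on the log2 scale (SE), 8.63-fold lower (adjusted p = 7.26e-06, edgeR quasi-likelihood test). Of the 6301 tested genes, 181 fell further. Without acid, it was 7.75-fold lower in the mutant than in the wild type (log2 −2.95 ± 0.36, adjusted p = 9.28e-05). Only 11 tested genes were lower still in that comparison. The size of both changes leaned on untreated wild-type replicate 2, the library with 106 CPM. Without it the log2 change with acid in the wild type was −2.66 and the strain difference without acid −2.51. No acid response was detected in the mutant (log2 0.01, 95% interval −0.72 to 0.73, adjusted p = 0.989), and no strain difference was detected with acid (log2 0.16, interval −0.49 to 0.82, adjusted p = 0.768). The response of the mutant minus that of the wild type was 3.12 ± 0.46 (adjusted p = 0.000665), and 19 genes had a larger positive difference.

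ALK6, the other gene whose enzyme acts on both substrates, had 65.2, 69.0 and 73.3 CPM in the mutant with acid and 10.5 and 35.5 CPM in the mutant without acid. Wild-type levels were 24.9, 20.8 and 27.1 CPM with acid and 6.98, 6.98 and 5.88 CPM without. All treated libraries were above all untreated libraries of their strain, and the treated mutant was above every other library. Acid raised it 3.67-fold in the wild type (log2 1.88 ± 0.35, adjusted p = 0.000729, edgeR). In the mutant it rose 3.001-fold (1.59 ± 0.38, adjusted p = 0.0162). It was also higher in the mutant than in the wild type, by 1.80 ± 0.37 in untreated cultures (adjusted p = 0.00315) and by 1.51 ± 0.33 in treated ones (adjusted p = 0.0188). No difference between the responses was detected (−0.29, interval −1.38 to 0.80, adjusted p = 0.710).

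The size of the ALK6 values without acid in the mutant rested on 1 library or the other, since its untreated mutant libraries stood 3.39-fold apart. Without untreated mutant replicate 1 the mutant response was 0.96 (adjusted p = 0.0368), the strain difference without acid 2.42 and the response difference −0.91 (adjusted p = 0.0331). Without untreated mutant replicate 2 the same values were 2.72 (adjusted p = 7.84e-05), 0.67 (adjusted p = 0.0671) and 0.84 (adjusted p = 0.0753). The call in the mutant was also lost when only the 2 groups compared were fitted (1.55, adjusted p = 0.0924). The strain difference with acid was lost without treated mutant replicates 2 (1.51, adjusted p = 0.0596) or 3 (1.47, 0.0624) and treated wild-type replicates 2 (1.41, 0.0799) or 3 (1.60, 0.0686).

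ALK5, one of the genes whose enzyme acts on the fatty acid, had 12.7, 10.9 and 18.1 CPM in the mutant with acid and 6.61 and 5.82 CPM in the mutant without acid. Wild-type levels were 2.27, 3.33 and 3.18 CPM with acid and 13.3, 14.1 and 19.2 CPM without. The treated wild type was lowest, the untreated mutant next, and the treated mutant overlapped the untreated wild type. With acid in the wild type, ALK5 fell by 2.41 ± 0.27 on the log2 scale (5.33-fold lower, adjusted p = 1.69e-05, edgeR). In the mutant it rose 2.23-fold (1.16 ± 0.29, adjusted p = 0.0181). This rise was lost without untreated mutant replicates 1 (1.25, adjusted p = 0.0817) or 2 (1.07, 0.0883), without treated mutant replicate 3 (0.92, 0.0643) and with only the groups compared (1.13, 0.0542).

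The strains differed for ALK5 in opposite directions with and without acid. With acid it was 4.75-fold higher in the mutant (log2 2.25 ± 0.27, adjusted p = 0.00211, edgeR), and 9 genes had a smaller p in that comparison. Without acid it was 2.502-fold lower in the mutant (−1.323 ± 0.29, adjusted p = 0.00422). The response difference of 3.57 ± 0.40 (adjusted p = 0.000110) was exceeded by 11 of the tested genes, and it ran from 3.33 to 3.72 when single libraries were left out.

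ALK4, whose tag is the neighbour of ALK5 with no tag between them in the table, had 24.8, 26.9 and 34.6 CPM in the mutant with acid and 16.6 and 26.7 CPM in the mutant without acid. Wild-type levels were 19.7, 21.2 and 25.6 CPM with acid and 16.1, 29.4 and 20.6 CPM without. Every group overlapped the next one. Its log2 changes with acid were 0.41 (interval −0.22 to 1.04, adjusted p = 0.369, edgeR) in the mutant and 0.01 (−0.56 to 0.57, adjusted p = 0.984) in the wild type. Between the strains they were 0.38 (−0.19 to 0.94) with acid and −0.03 (−0.65 to 0.60) without. The sign of the values near zero turned with the scaling or the library left out. ALK4 and ALK5 are paralogs, and any reads they share are not separated here.

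ALK7 had few reads, between 17 and 70 per library. Its level was 2.77, 4.58 and 3.996 CPM in the mutant with acid and 1.67 and 2.49 CPM in the mutant without acid. Wild-type levels were 2.73, 1.89 and 1.86 CPM with acid and 1.28, 1.63 and 1.27 CPM without. The treated libraries were above the untreated ones in each strain, and the mutant above the wild type in each condition, without an overlap, although with acid the lowest mutant library (2.77) and the highest wild-type library (2.73) nearly met. None of these differences passed in edgeR. The log2 changes with acid were 0.85 (interval 0.09 to 1.62, adjusted p = 0.120) in the mutant and 0.64 (−0.08 to 1.36, adjusted p = 0.120) in the wild type. Between the strains they were 0.80 with acid (0.12 to 1.49, adjusted p = 0.123) and 0.58 without acid (−0.20 to 1.37, adjusted p = 0.218).

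**Figure D2:**
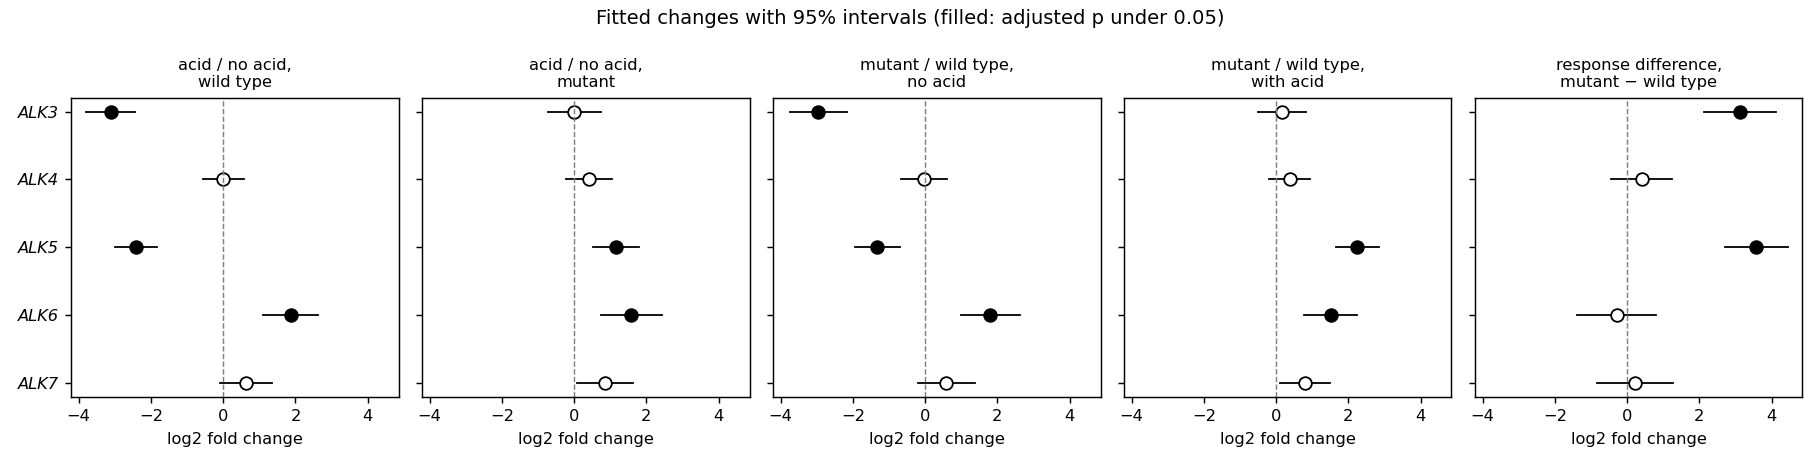
Fitted log2 fold changes of ALK3 to ALK7 with 95% intervals in the 5 comparisons, with filled points for an adjusted p under 0.05. ALK3 and ALK5 passed in the response difference, at 3.12 and 3.57, and ALK4 and ALK7 had open points in all 5 panels.

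The counts of the family stood as follows beside those of all genes. With acid in the wild type, 3 of the 5 passed, 1 higher and 2 lower, where 56.5% of all tested genes passed (28.5% higher and 28.01% lower). In the mutant 2 of 5 rose with acid, where 17.6% passed (7.95% higher and 9.70% lower). Between the strains without acid 3 of 5 passed, 1 higher and 2 lower in the mutant, where 38.1% passed (22.8% higher and 15.3% lower). With acid 2 of 5 were higher in the mutant, where 10.7% passed (4.999% higher and 5.68% lower). For the response difference 2 of 5 passed with positive values, where 25.5% passed (9.998% higher and 15.5% lower). The median log2 change of the 5 genes was 0.01 for acid in the wild type, 0.85 for acid in the mutant, −0.03 between the strains without acid and 0.80 with acid. Each of these medians is the value of 1 gene and not a shift of the family. It is ALK4 for acid in the wild type and for the strains without acid, and ALK7 for the others, and neither gene passed. Medians over all tested genes lay between −0.03 and 0.03 in these 4 comparisons, and TMM scaling itself draws them toward zero. Comparisons that share a group share its libraries, so these counts are not independent of each other.

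Libraries of both groups did not overlap for 4 of the 5 genes in the wild type with and without acid, where this held for 62.9% of tested genes. In the mutant with and without acid it held for 3 of 5 against 49.2%. Between the strains it held for 4 of 5 without acid (59.8% of tested genes) and for 3 of 5 with acid (37.5%).

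The makeup of the family's reads differed between the groups. Summed over the 5 genes, the level was 114.1, 119.2 and 140.4 CPM in the mutant with acid and 44.1 and 79.5 CPM in the mutant without acid. It was 59.0, 53.6 and 65.7 CPM in the wild type with acid and 83.1, 158.1 and 102.9 CPM in the wild type without acid. Within each strain the summed levels with and without acid did not overlap, being higher with acid in the mutant and lower with acid in the wild type. ALK6 gave 52.2% to 57.9% of these reads in the treated mutant, 23.8% and 44.6% in the untreated mutant, 38.7% to 42.2% in the treated wild type and 4.42% to 8.40% in the untreated wild type. ALK3 gave 6.58% to 7.56% in the treated mutant, 11.3% and 19.97% in the untreated mutant, 12.0% to 15.9% in the treated wild type and 54.3% to 67.01% in the untreated wild type. Shares of reads also depend on gene length, which was not used here, so they do not rank the genes. A share can be compared between groups, but it also moves when another gene of the 5 changes. In the wild type the mean ALK4 share was 19.3% without acid and 37.3% with acid, at mean levels of 22.05 and 22.16 CPM.

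The neighbours ALK4 and ALK5 can be set against each other within a library, where the scaling cancels. There were 0.510, 0.404 and 0.521 ALK5 reads per ALK4 read in the mutant with acid and 0.399 and 0.218 in the mutant without acid. Wild-type ratios were 0.115, 0.157 and 0.124 with acid and 0.827, 0.479 and 0.930 without. The treated wild type lay below all other libraries. The untreated wild type lay highest except for its replicate 2, which fell among the treated mutant libraries.

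**Figure D3:**
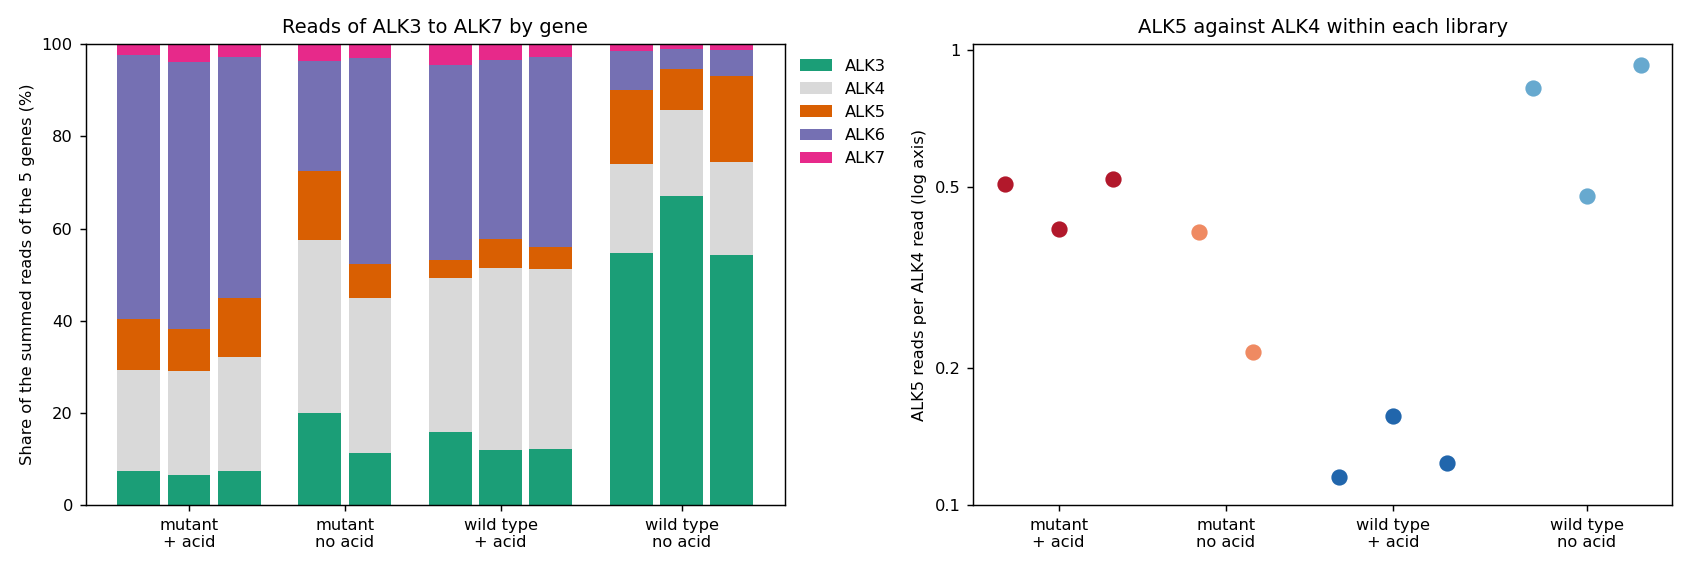
Left, share of the summed reads of ALK3 to ALK7 (%) given by each gene in every library, 1 bar per library. Right, ALK5 reads per ALK4 read (log axis), 1 point per library. ALK3 made up 54.3% or more of the bar in the 3 untreated wild-type libraries and ALK6 52.2% or more in the 3 treated mutant libraries, and the ratio was lowest in the treated wild type, at 0.115 to 0.157.

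Over the 11 libraries, ALK6 and ALK7 rose and fell together most closely of the 10 pairs (Pearson r = 0.920 in log2 CPM). ALK3 and ALK6 had the lowest r (−0.752). These values share the differences between the groups and describe these libraries only. Within the groups, after removing group means, r was 0.542 for ALK6 and ALK7 and 0.138 for ALK3 and ALK6. By that measure ALK6 and ALK7 were not the closest pair. ALK3 and ALK4 (0.680) and ALK4 and ALK6 (0.595) had higher values. Among genes outside the family, YALI0_E30789g (r = 0.987) and YALI0_B01771g (0.981) correlated most with ALK3. By rank (Spearman) the values were 0.845 and 0.618. YALI0_B01771g averaged 4.88 CPM in the untreated wild type and 1.05 to 1.17 CPM in the other groups. YALI0_E30789g averaged 27.3 CPM in the treated mutant, 28.1 in the untreated mutant, 26.9 in the treated wild type and 59.0 in the untreated wild type. For ALK6 the genes with the highest Pearson r were YALI0_B14641g (0.982) and YALI0_F16401g (0.971). For ALK7 they were YALI0_F06820g (0.978) and YALI0_D03113g (0.964), and for ALK5 YALI0_E27027g (0.941) and YALI0_C15488g (0.926). For ALK4 the nearest were YALI0_C16049g (0.826) and YALI0_E20405g (0.822). These genes were picked for the highest r among all tested genes outside the family, so high values were built in. Within the groups, in the order named, r was 0.892 and 0.705 for ALK3, 0.833 and 0.938 for ALK6 and 0.952 and 0.944 for ALK7. It was 0.567 and 0.546 for ALK5 and 0.797 and 0.903 for ALK4. Group means of YALI0_E27027g ran only from 18.7 to 29.1 CPM, against 2.93 to 15.5 CPM for ALK5. YALI0_F16401g had 137.4 CPM in the treated mutant, 57.7 in the untreated mutant, 89.0 in the treated wild type and 27.8 in the untreated wild type.

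The 7 other CYP52 genes were ALK1, ALK2, ALK9 and ALK10, whose enzymes hydroxylate alkanes, and ALK8, ALK11 and ALK12. In the wild type 4 of the 7 fell with acid and none rose in edgeR, where 28.01% of all tested genes fell and 28.5% rose. The median log2 change of the 7 was −1.15. ALK9 changed by −4.72 ± 0.72 (adjusted p = 0.000176) and ALK1 by −2.54 ± 0.37 (adjusted p = 0.000131), and both passed in all 14 alternatives. Treated wild-type replicates 1, 2 and 3 held 1, 8 and 2 ALK9 reads, and without replicate 2 the ALK9 change was −6.16. The other 2 calls, named here to complete the count, were ALK10 and ALK2. ALK10 changed by −2.44 ± 0.70 (adjusted p = 0.0112), with 9, 5 and 1 reads in the treated libraries and 33, 47 and 28 in the untreated ones, and by −3.03 without treated replicate 1. The fall of ALK2 (−1.15 ± 0.41, adjusted p = 0.0310) was lost in 4 of 14 alternatives, without untreated wild-type replicates 2 (−1.12) or 3 (−1.11) and treated replicates 1 (−1.17) or 2 (−0.81). In the mutant 1 of 7 passed, where 17.6% of tested genes did. This was ALK9, which fell by 2.81 ± 0.72 (adjusted p = 0.0208). That fall was lost in 5 of 13 alternatives, among them without untreated mutant replicate 1 (−1.82), without treated mutant replicates 2 (−2.42) or 3 (−2.89) and with only the groups compared (−2.82, adjusted p = 0.0502). Without untreated mutant replicate 2 it was −3.41. For the response difference 1 of 7 passed, where 25.5% of tested genes did. This was ALK1 (2.48 ± 0.54, adjusted p = 0.00719), and it stayed past the threshold in all 18 alternatives.

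Between the strains, 2 of the 7 passed without acid and 1 with acid, where 38.1% and 10.7% of tested genes passed. Without acid ALK11 was higher in the mutant (1.86 ± 0.47, adjusted p = 0.00969), lost without untreated mutant replicate 2 (1.76), and ALK1 was lower (−1.16 ± 0.40, adjusted p = 0.0386). With acid ALK1 was higher in the mutant (1.319 ± 0.37, adjusted p = 0.0436). The ALK1 call without acid was lost without untreated mutant replicates 1 (−1.13) or 2 (−1.19) and untreated wild-type replicates 2 (−1.21) or 3 (−0.99), and in 7 of 13 alternatives in all. The call with acid was lost without treated mutant replicates 2 (1.38) or 3 (0.99) and treated wild-type replicates 2 (1.05) or 3 (1.21), and in 7 of 14 in all.

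**Figure D4:**
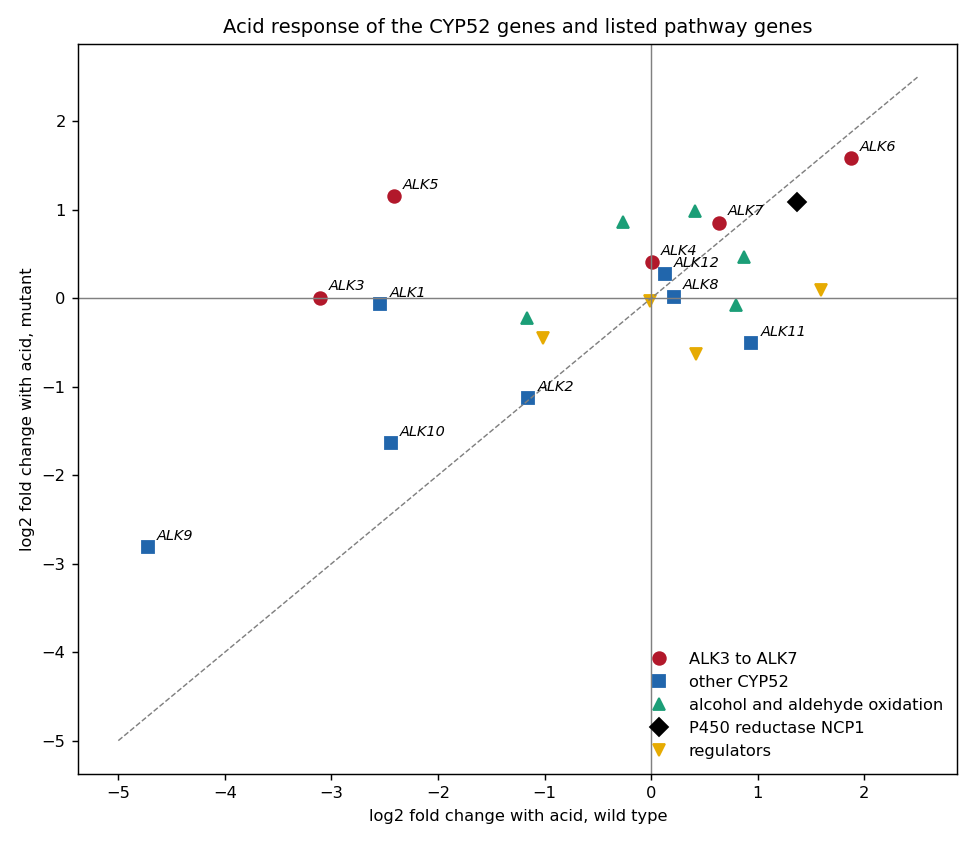
Log2 fold change with acid in the wild type (horizontal) and in the mutant (vertical) for ALK3 to ALK7, the other CYP52 genes and the listed pathway genes, with a dashed line where both are equal. ALK5 is the CYP52 gene that lies far into the upper left, at −2.41 and 1.16, and ALK3 and ALK1 lie near zero on the vertical axis.

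NCP1 (YALI0_D04422g), listed as the reductase that supplies P450 enzymes with electrons, rose with acid in both strains. It had 371.1, 393.4 and 481.4 CPM in the mutant with acid and 170.4 and 219.0 CPM in the mutant without acid. Wild-type levels were 360.0, 271.5 and 296.4 CPM with acid and 94.3, 144.4 and 120.9 CPM without. The changes were 1.09 ± 0.24 in the mutant (adjusted p = 0.0104, edgeR) and 1.37 ± 0.21 in the wild type (adjusted p = 0.000197). The call in the mutant was lost without untreated mutant replicate 1 (0.92, adjusted p = 0.101). NCP1 was also higher in the mutant than in the wild type without acid (0.70 ± 0.23, adjusted p = 0.0328), which was lost in 6 of 13 alternatives. These included leaving out untreated mutant replicate 2 (0.51) or untreated wild-type replicates 1 (0.55) or 3 (0.70), and fitting only the groups compared (0.69, adjusted p = 0.0832).

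The list of later steps held FAO1 (YALI0_B14014g), a fatty alcohol oxidase gene, and 4 tags listed as fatty aldehyde dehydrogenases. With acid 1 of 5 rose in the wild type, YALI0_F23793g (0.87 ± 0.19, adjusted p = 0.00189, edgeR), and 1 fell, YALI0_B01298g (−1.17 ± 0.19, adjusted p = 0.000318). Of all tested genes, 28.5% rose and 28.01% fell there. In the mutant 1 of 5 rose, where 7.95% of tested genes did. This was YALI0_E15400g (0.98 ± 0.24, adjusted p = 0.0160), lost without untreated mutant replicates 1 (0.92) or 2 (1.05). Between the strains 2 of 5 passed without acid and 2 of 5 with acid, where 38.1% and 10.7% of tested genes passed. For the response difference 1 of 5 passed, where 25.5% of tested genes did. YALI0_F23793g was higher in the mutant than in the wild type, by 1.10 ± 0.19 with acid (adjusted p = 0.00700) and by 1.50 ± 0.20 without (adjusted p = 0.000197). FAO1 was 2.78-fold higher in the mutant with acid (adjusted p = 0.0196), lost in 5 of 14 alternatives, among them without treated mutant replicates 2 (1.57) or 3 (1.14) and treated wild-type replicates 2 (1.31) or 3 (1.35, log2 in each case). YALI0_B01298g was lower in the mutant without acid (−0.84 ± 0.22, adjusted p = 0.0111), lost without untreated mutant replicates 1 (−0.83) or 2 (−0.85). Its response difference (0.94 ± 0.29, adjusted p = 0.0341) was lost in 10 of 18 alternatives, with values from 0.75 to 1.05, and among the fits that leave out 1 library it passed only without treated mutant replicate 3 or untreated wild-type replicates 1 or 2.

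The listed regulators were YAS1 and YAS2, which form the activator of alkane-induced ALK1 transcription, YAS3, the repressor that binds YAS2, and POR1, a regulator of fatty acid use. With acid 1 of 4 rose in the wild type, YAS2 (1.59 ± 0.35, adjusted p = 0.00208, edgeR), and 1 fell, POR1 (−1.02 ± 0.21, adjusted p = 0.00153). Of all tested genes, 28.5% rose and 28.01% fell there. In the mutant 0 of 4 passed in edgeR, with 0 at an unadjusted p under 0.05 and 0 with DESeq2. Of the 6301 tested genes, 1112, 1947 and 1447 did so, in that order. Without acid 1 of 4 passed between the strains, where 38.1% of tested genes did. This was POR1, which was lower in the mutant than in the wild type (−1.17 ± 0.24, adjusted p = 0.00315). With acid 0 of 4 passed in edgeR between the strains, although 4 were lower in the mutant at an unadjusted p under 0.05 and 3 passed with DESeq2. Of the 6301 tested genes, 673 passed in edgeR, 1732 had an unadjusted p under 0.05 in either direction and 1057 passed with DESeq2. For the response difference 1 of 4 passed in edgeR, where 25.5% of tested genes did. The response difference of YAS2 (−1.50 ± 0.50, adjusted p = 0.0478) was lost in 11 of 18 alternatives, with values from −1.87 to −1.002, and among the fits that leave out 1 library it passed only without untreated mutant replicate 1, treated wild-type replicate 1 or untreated wild-type replicate 3.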

How the data were processed

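Whole-number read counts per gene, 1 column per library, were used as deposited by the authors, with 7135 genes in 11 libraries. Per the submitters' processing notes, the tools were STAR 2.7.9a, HTSeq 0.11.0, DESeq2 1.32.0, SAMtools 1.9 and FastQC 0.11.7, with no roles given. The sources used here do not give the genome build, annotation or strand setting, so reads from overlapping genes, antisense genes or near-identical copies cannot be told apart. The deposited normalized table was not used here. Library totals ran from 9988288 to 17519857 counts.

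Counts were tested with edgeR 4.0.16 and limma 3.58.1 under R 4.3.3. The filter was filterByExpr (6301 genes kept, 834 removed) and the scaling TMM. The fit had 1 mean per group over all 11 libraries, since the untreated mutant has only 2. Each of 5 comparisons used the quasi-likelihood F test (robust=TRUE) with Benjamini-Hochberg adjustment over all tested genes and a threshold of 0.05. Standard errors were taken from the fold change and F, and intervals are 95%. The script was tested on simulated counts. Alternatives were RLE scaling, total counts only, DESeq2 1.42.0, no filter, a stricter filter (CPM of at least 1 in 3 libraries), only the groups compared, replicate blocks, and leaving out each library.

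Members, gene lists and the rule for named genes were chosen with earlier results of these data known. The rule names all 5 members in every comparison, at most 2 passing genes per list and comparison with the largest log2 change, and the 2 genes most correlated with each member. ALK10 and ALK2, named for acid in the wild type, fall outside it and were chosen after their values were seen. Names other than those of the members were paired with tags from published assignments, since 0 of the tags were found in the reference table used here.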

Additional observations from a re-analysis of the deposited data

Results flagged for a closer look

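The acid responses of 2 of the 5 genes differed between the strains by the test of the difference itself. For ALK3 the log2 response in the mutant minus that in the wild type was 3.12 ± 0.46 (adjusted p = 0.000665, edgeR), and it ran from 2.67 to 3.34 when each of the 11 libraries was left out. For ALK5 it was 3.57 ± 0.40 (adjusted p = 0.000110), from 3.33 to 3.72 in the same fits. The groups of 2 or 3 libraries were too small to test for single libraries that stand apart.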

How the results depend on the processing

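Each of the 25 fitted values of ALK3 to ALK7 was recomputed under 13 to 18 alternatives, 360 values in all, of which 334 kept their direction and side of the threshold. ALK3 and ALK5 kept their calls in every alternative for acid in the wild type, for the strains without acid and for the response difference, as did ALK5 for the strains with acid and ALK6 for acid in the wild type. Signs turned only in differences that did not pass. With total counts only they were −0.10 for ALK4 with acid in the wild type, −0.012 for ALK3 with acid in the mutant and 0.044 for ALK4 between the strains without acid. With only the groups compared the first 2 were −0.011 and −0.016. Leaving out single libraries gave −0.18 to 0.27, −0.11 to 0.10 and −0.41 to 0.28 for these 3, and −0.91 to 0.84 for ALK6 and −0.035 to 0.54 for ALK7 in the response difference. Leaving out 1 untreated mutant library leaves 1, which is then assumed to vary like the other groups.

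Of the 5 genes, leaving out 1 library gave 3 calls throughout for acid in the wild type, 1 to 2 for acid in the mutant, 2 to 3 without acid, 1 to 2 with acid and 2 to 3 for the response difference. With only the groups compared, 0 passed for acid in the mutant. Over all genes the counts ran from 3049 to 3483 (3563 with all libraries), 447 to 952 (1112), 1375 to 2255 (2402), 134 to 768 (673) and 1103 to 1631 (1604), in the same order. The count for acid in the mutant was 659 with only the groups compared, and that with acid between the strains was 1057 with DESeq2. Over all genes the median log2 change was −0.11 with total counts only, against −0.01 with TMM, for acid in the wild type. Between the strains with acid it was 0.16 against 0.03, and 62.3% of calls were then higher in the mutant against 46.8%. The causes were not tested.

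Whether replicate numbers pair the libraries was not settled, since deviations within groups of 2 or 3 libraries constrain each other. Correlations of same-numbered deviations ran from −0.45 to 0.37, and 3 of 6 libraries in the wild type and 1 of 6 with acid correlated best with their own number. A replicate block by title number turned ALK4 between the strains without acid to 0.038, gave 739 genes for acid in the mutant and 391 between the strains with acid (409 by description number), and changed no call of the 5 genes. Of the 24 calls of the other listed genes, the block by title number ended 7 and that by description number 5 of those 7. By title number the values were −2.62 for ALK9 with acid in the mutant (adjusted p = 0.0678), 0.73 for NCP1 without acid (0.0550), 1.43 for FAO1 with acid (0.0522), −1.02 and 1.30 for ALK1 without and with acid (0.0882 and 0.0764), and 0.91 and −1.56 for the response differences of YALI0_B01298g and YAS2 (0.0754 and 0.0597). By description number NCP1 was at 0.66 (adjusted p = 0.0748).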
